A study of Mus musculus with 14 samples.

Results

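Cyp3a cytochromes are the cytochrome P450 enzymes that oxidise steroids, bile acids and many drugs, and in the mouse they are encoded by a family of closely related genes on chromosome 5. The group described here holds 7 listed genes, Cyp3a11, Cyp3a13, Cyp3a16, Cyp3a25, Cyp3a41a, Cyp3a44 and Cyp3a59. A gene was read from its own probe, the single-gene probe chosen by the highest measured mean over all arrays, and 5 of the 7 genes had such a probe (each had only 1), out of 19938 genes tested. Cyp3a41a and Cyp3a59 are measured only by probes that also match other Cyp3a genes, and these are given separately. The list was drawn up with the change of Cyp3a16 already known, so its values here are a description of that change and not independent evidence for it.

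Liver tissue free of tumour was taken from female mice aged 14 months. The 3 groups were wild type, of strain C57BL/6 (3 arrays), mice lacking Mdr2, written Mdr2-KO (5 arrays), and mice lacking both Mdr2 and IL-6, written Mdr2-KO/IL6-KO (6 arrays). Mdr2, now named Abcb4, is the transporter that moves phosphatidylcholine into bile, and its loss gives chronic bile duct injury. IL-6 is a cytokine to which hepatocytes respond with acute phase proteins. A strain was labelled for wild type alone, and Abcb4 and Il6 lie on chromosome 5 as the Cyp3a genes do, so loss of the targeted genes and strain differences around them cannot be told apart. The labels do not say that each array is a separate mouse, and p-values therefore measure the spread between these arrays.

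In rodent liver, Cyp3a genes are switched on by nuclear receptors, above all PXR (Nr1i2) and CAR (Nr1i3), which sense bile acids, steroids and drugs. Several members, Cyp3a16, Cyp3a41 and Cyp3a44 among them, are female-biased in the adult mouse, under the control of the growth hormone secretion pattern and its mediator STAT5. Inflammatory cytokines, IL-6 among them, are known to lower many hepatic P450 enzymes.

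All values are on the log2 scale, with SD over arrays for means and a standard error (SE) for differences. Array medians lay between 6.15 and 6.24. Background was set at 5.48, the value under which 95% of the means of 1027 olfactory receptor genes fell. Abcb4 read 10.36 ± 0.03 (SD, n = 3) in wild type, 9.01 ± 0.19 (n = 5) in Mdr2-KO and 9.05 ± 0.20 (n = 6) in Mdr2-KO/IL6-KO, and Il6 was under background on every array, wild type included, so its probe does not check the loss of IL-6. Xist read 11.69 to 11.92 on the 14 arrays and the Y-linked genes Eif2s3y, Kdm5d and Uty were all under background, as the female label has it. Hepatocyte markers as a list of 8 genes averaged between 12.37 and 12.60 on every array.

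A pair of arrays stood apart from their groups in the female-biased Cyp3a genes. Differences from wild type in these genes are given with and without wild-type array 2, and some also without Mdr2-KO array 3. Wild-type array 2 differed from the mean of the other wild-type arrays by -5.44 log2 units for Cyp3a16 and by -0.89 for Cyp3a44. Mdr2-KO array 3 differed from the mean of the other Mdr2-KO arrays by 1.94 for Cyp3a16 and by -0.41 for Cyp3a44. Among all 19938 genes, Cyp3a16 had the largest SD between wild-type arrays (rank 1), and Cyp3a44 ranked 218.

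Cyp3a16, a steroid-hydroxylating enzyme of fetal and adult female liver, showed the largest difference of the family. Its wild-type arrays read 10.69, 4.95 and 10.09. The Mdr2-KO arrays read 3.95, 3.68, 5.80, 4.30 and 3.51, and the Mdr2-KO/IL6-KO arrays lay between 3.37 and 4.22 with a median of 3.91. Thus 2 of 3 wild-type arrays were far above background, while 4 of 5 Mdr2-KO and all 6 Mdr2-KO/IL6-KO arrays lay under it. Wild type overlapped Mdr2-KO through wild-type array 2 and Mdr2-KO array 3. Wild-type array 2 and all Mdr2-KO/IL6-KO arrays were under background, where values have no order. In whole tissue, fewer cells that express a gene and less RNA per cell cannot be told apart.

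Tests were limma's moderated test with Benjamini-Hochberg adjustment over all genes, at an adjusted p of 0.05. Cyp3a16 was lower in Mdr2-KO than in wild type, with a difference of -4.33 (SE 0.90, 95% interval -6.25 to -2.41, adjusted p = 0.00428 in limma). It was lower in Mdr2-KO/IL6-KO than in wild type as well, with a difference of -4.71 (SE 0.88, interval -6.57 to -2.85, adjusted p = 0.00246 in limma). The test takes the spread of a gene as equal in all groups, which Cyp3a16 did not meet. Its SD was 3.15 for wild type (n = 3), against 0.92 for Mdr2-KO (n = 5) and 0.28 for Mdr2-KO/IL6-KO (n = 6). These SEs, intervals and p-values therefore understate the uncertainty that comes from the wild-type arrays. Since the knockout signals are mostly under background, their true levels are only bounded: with each knockout array raised to at least background, Cyp3a16 was at least 8.18-fold lower in Mdr2-KO and at least 8.55-fold lower in Mdr2-KO/IL6-KO. The bounds rest on which of the 3 wild-type arrays are kept, array 2 being itself under background: they were 3.94-fold and 4.12-fold without array 1, 4.84-fold and 5.06-fold without array 3, and 28.7-fold and 30.0-fold without array 2. Without array 2 the fitted differences were -6.14 and -6.52. Without wild-type array 1 the fitted difference in Mdr2-KO was -3.27, and without wild-type array 3 it was -3.57, both still past the threshold. Between the knockouts the difference was -0.38 (interval -1.97 to 1.21, adjusted p = 0.761 in limma), mostly between values under background.

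Cyp3a44, a second female-biased member, read 9.33, 8.35 and 9.16 in wild type. It read 8.93, 8.69, 8.35, 8.74 and 8.71 in Mdr2-KO, and between 8.27 and 8.71 (median 8.48) in Mdr2-KO/IL6-KO. The wild-type arrays 1 and 3 lay above every knockout array, and wild-type array 2 lay among the knockouts. With all arrays neither difference from wild type passed the test, at -0.26 (SE 0.18, interval -0.64 to 0.12, adjusted p = 0.297 in limma) in Mdr2-KO and -0.48 (SE 0.17, interval -0.85 to -0.11, adjusted p = 0.0898 in limma) in Mdr2-KO/IL6-KO. Without wild-type array 2 both passed, at -0.56 (adjusted p = 0.0141 in limma) and -0.77 (adjusted p = 0.00267 in limma). The knockouts differed by -0.21 (interval -0.53 to 0.10, adjusted p = 0.344 in limma).

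Cyp3a41a, also female-biased, has no probe of its own, but a probe shared by Cyp3a41b, Cyp3a44 and Cyp3a41a carries its signal together with theirs. That probe read 12.49, 10.67 and 12.16 in wild type. It read 10.46, 10.38, 11.46, 10.76 and 10.31 in Mdr2-KO, and between 10.14 and 10.45 (median 10.26) in Mdr2-KO/IL6-KO. The arrays that were low or high within their group were those of Cyp3a16: wild-type array 2 differed from the mean of the others in its group by -1.66 and Mdr2-KO array 3 by 0.98. A further probe that adds Cyp3a11 to the same genes read 12.41, 10.80 and 12.14 in wild type, 10.20 to 11.38 in Mdr2-KO and 10.01 to 10.34 in Mdr2-KO/IL6-KO. The same arrays stood apart as on the probe without Cyp3a11, whereas the single-gene probe of Cyp3a11 was lowest in wild type.

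These shared probes were read from a fit of all 35557 probes, of which 17.1% were called when Mdr2-KO was set against wild type. The shares were 7.72% where Mdr2-KO/IL6-KO was set against wild type and 8.28% between the knockouts. The Cyp3a41b, Cyp3a44 and Cyp3a41a probe was 2.14-fold lower in Mdr2-KO than in wild type (-1.10, SE 0.33, adjusted p = 0.0369 in limma) and in Mdr2-KO/IL6-KO it was 2.83-fold lower (-1.50, SE 0.32, adjusted p = 0.0113 in limma). The probe that adds Cyp3a11 was 2.35-fold lower (-1.23, SE 0.31, adjusted p = 0.0170 in limma) and 3.13-fold lower (-1.64, SE 0.30, adjusted p = 0.00466 in limma). Wild type and Mdr2-KO/IL6-KO did not overlap on either probe, which is a description, as the share of all probes without overlap is not given. In Mdr2-KO the call of the first probe was lost without wild-type array 1 (adjusted p = 0.164 in limma), wild-type array 3 (0.163), Mdr2-KO array 1 (0.072), array 2 (0.060), array 4 (0.059) or array 5 (0.066), and that of the second without wild-type array 1 (0.084) or array 3 (0.090). Both calls were also lost when Mdr2-KO and wild type were fitted alone (adjusted p = 0.115 and 0.0723 in limma). In Mdr2-KO/IL6-KO the first probe's call was lost without wild-type array 1 (0.067) or array 3 (0.068). Without wild-type array 2 the differences were -1.65 and -1.72 in Mdr2-KO, and -2.05 and -2.14 in Mdr2-KO/IL6-KO. In Mdr2-KO they were -1.29 and -1.44 without Mdr2-KO array 3, and -1.85 and -1.93 with both arrays left out. Between the knockouts the probes differed by -0.40 (adjusted p = 0.354) and -0.41 (adjusted p = 0.313), neither past the threshold in limma.

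**Figure D1:**
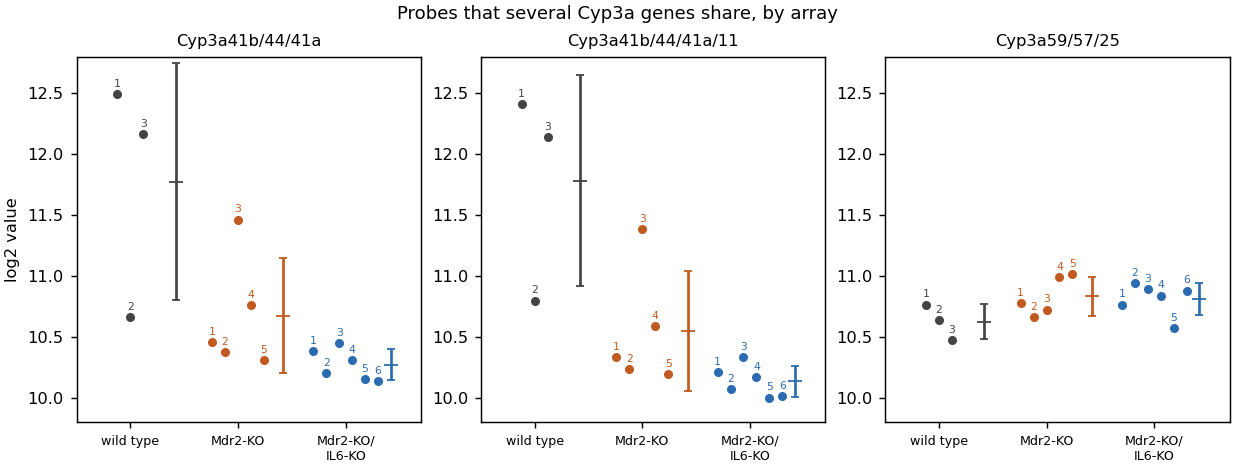
Log2 value of each array (points, numbered by array within its group) for the probes that several Cyp3a genes share, with group mean and SD (bars) over 3 arrays of wild type, 5 of Mdr2-KO and 6 of Mdr2-KO/IL6-KO. On both probes with Cyp3a41 signal the wild-type arrays 1 and 3 lie above 12 and all Mdr2-KO/IL6-KO arrays below 10.5, whereas the Cyp3a59, Cyp3a57 and Cyp3a25 probe stays between 10.48 and 11.02.

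Cyp3a11, the most abundant PXR-induced drug and bile acid oxidase of mouse liver, went the other way. The wild-type arrays read 11.85, 12.19 and 11.76. The Mdr2-KO arrays read 12.65, 12.44, 12.26, 12.62 and 12.44, and the Mdr2-KO/IL6-KO arrays 12.31 to 12.49 with a median of 12.37. Every knockout array was above every wild-type array, given as a description without the share of all genes that separate so. Cyp3a11 was 1.46-fold higher in Mdr2-KO than in wild type (0.55, SE 0.10, interval 0.33 to 0.77, adjusted p = 0.00228 in limma). It was 1.37-fold higher in Mdr2-KO/IL6-KO (0.46, SE 0.10, interval 0.25 to 0.67, adjusted p = 0.00685 in limma), which no longer passed when wild-type array 3 was left out (0.37, adjusted p = 0.051). The knockouts differed by -0.09 (interval -0.27 to 0.09, adjusted p = 0.497 in limma). The wild-type array that was lowest for Cyp3a16 and Cyp3a44, array 2, was the highest for Cyp3a11, 0.39 above the mean of the other wild-type arrays, and Mdr2-KO array 3, highest of its group for Cyp3a16, was the lowest for Cyp3a11, with a difference of -0.28 from the mean of the others.

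Cyp3a13, the member that lies apart from the others on chromosome 5 and is also expressed in the intestine, was the member that differed between the knockouts. It read 10.94, 10.91 and 10.54 in wild type. It read 10.77, 10.63, 11.02, 10.53 and 10.52 in Mdr2-KO, and between 10.03 and 10.42 (median 10.20) in Mdr2-KO/IL6-KO. Wild type and Mdr2-KO covered the same range, and all 6 Mdr2-KO/IL6-KO arrays were below all 8 others, again a description without the share over all genes. Cyp3a13 was 1.51-fold lower in Mdr2-KO/IL6-KO than in wild type (-0.60, SE 0.12, interval -0.85 to -0.34, adjusted p = 0.00401 in limma). It was 1.41-fold lower in Mdr2-KO/IL6-KO than in Mdr2-KO (-0.50, SE 0.10, interval -0.71 to -0.28, adjusted p = 0.0102 in limma), and between -0.54 and -0.41 with any 1 array left out. Mdr2-KO and wild type differed by -0.10 (interval -0.36 to 0.16, adjusted p = 0.564 in limma).

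Cyp3a25, an abundant member of adult liver of both sexes, was the steadiest. It read 11.88, 11.96 and 11.92 in wild type. It read 11.89, 12.00, 11.96, 12.17 and 12.16 in Mdr2-KO, and between 11.87 and 12.09 (median 12.04) in Mdr2-KO/IL6-KO, so that the 3 groups overlapped. The differences from wild type were 0.12 (interval -0.04 to 0.28, adjusted p = 0.26 in limma) and 0.09 (interval -0.06 to 0.25, adjusted p = 0.474 in limma), and that between the knockouts -0.02 (interval -0.16 to 0.11, adjusted p = 0.821 in limma). These intervals leave room for a change of at most about 0.28 log2 units. Cyp3a59 was measured only by a probe shared with Cyp3a57 and Cyp3a25, which read 10.63 ± 0.14 (SD, n = 3), 10.84 ± 0.16 (n = 5) and 10.82 ± 0.13 (n = 6) and passed the test in no comparison (adjusted p = 0.17, 0.303 and 0.9 in limma). The single-gene probe of Cyp3a57 was under background on all 14 arrays, between 3.73 and 4.25.

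**Figure D2:**
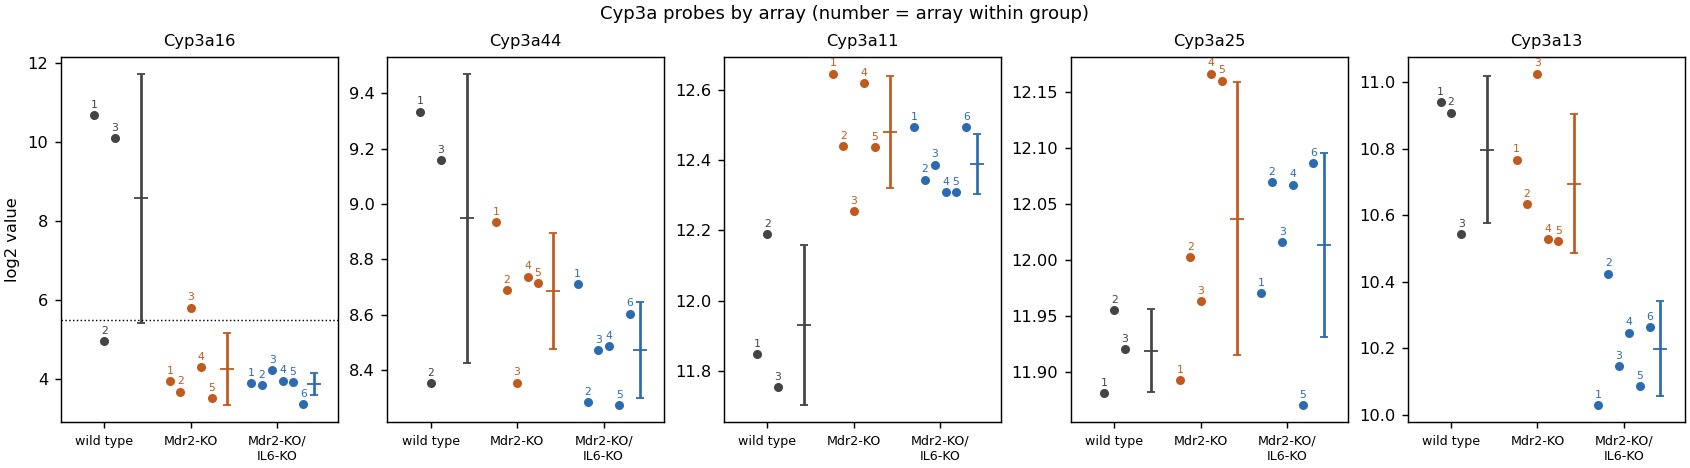
Log2 value of each array (points, numbered by array within its group) for the 5 members with a probe of their own, with group mean and SD (bars), over 3 arrays of wild type, 5 of Mdr2-KO and 6 of Mdr2-KO/IL6-KO. Each panel has its own scale, and the dotted line in the Cyp3a16 panel is the background of 5.48; wild-type array 2 is lowest of its group for Cyp3a16 and Cyp3a44 and highest for Cyp3a11, and all Mdr2-KO/IL6-KO arrays are below the others for Cyp3a13.

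Counted over the 5 members, 2 passed in Mdr2-KO against wild type, 1 higher (Cyp3a11) and 1 lower (Cyp3a16), where 21.0% of all genes passed, 8.89% higher and 12.1% lower. In Mdr2-KO/IL6-KO against wild type 3 passed, 1 higher (Cyp3a11) and 2 lower (Cyp3a16 and Cyp3a13), where 12.3% of all genes passed, 6.96% higher and 5.33% lower. Between the knockouts 1 passed, lower (Cyp3a13), where 8.76% of all genes passed, 5.04% higher and 3.72% lower. The members' median differences were -0.10, -0.48 and -0.21, beside -0.07, -0.02 and 0.06 for all genes. With 5 members these counts are a description, and the comparisons against wild type share the same 3 wild-type arrays.

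**Figure D3:**
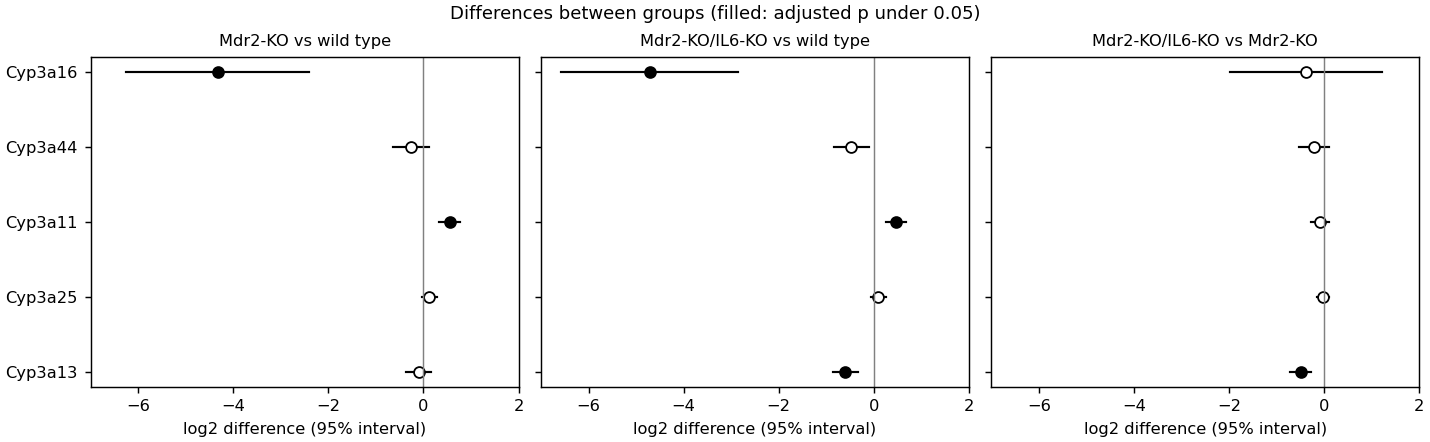
Log2 difference (point) with its 95% interval (line) for the 5 members in each comparison, filled where the adjusted p in limma is under 0.05. Cyp3a16 lies at -4.33 and -4.71 against wild type, Cyp3a11 at 0.55 and 0.46, and Cyp3a13 alone is filled between the knockouts, at -0.50.

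Positions and promoter sequences of the family are given beside these differences. On chromosome 5, 8 of the 9 mouse Cyp3a genes in the annotation stand in 1 block, in the order Cyp3a57, Cyp3a16, Cyp3a41b, Cyp3a41a, Cyp3a44, Cyp3a11, Cyp3a25 and Cyp3a59, with 0 other protein-coding genes inside it, and Cyp3a13 lies 121 protein-coding genes away. In the 250 bases before the start of transcription (RefSeq, GRCm38.p6), Cyp3a16 was identical to Cyp3a44 at 95.9% of aligned bases and to Cyp3a41a at 93.9%, and Cyp3a41a to Cyp3a44 at 94.4%. Cyp3a11 shared 83.7% with Cyp3a16 and 81.3% with Cyp3a44. Cyp3a25 and Cyp3a59 shared 95.6% with each other, but Cyp3a25 shared 62.3% with Cyp3a16, and Cyp3a13 between 58.1% and 63.9% with the other 8. For Cyp3a25 the annotation held 2 starts, and only the first listed was used here and below.

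Among the female-biased genes, Cyp3a16 was lower in the knockouts by its own probe. Cyp3a41a has no such probe, and the lower signal of its shared probes cannot be assigned to it alone. The 180 bases before the start are shown for Cyp3a16, Cyp3a41a and Cyp3a44, for their neighbour Cyp3a11 that was higher, and for Cyp3a25 that passed no test. They lie on the minus strand of GRCm38.p6 at chr5:145469724-145469903 for Cyp3a16, chr5:145720137-145720316 for Cyp3a41a, chr5:145805875-145806054 for Cyp3a44, chr5:145879855-145880034 for Cyp3a11 and chr5:146009619-146009798 for Cyp3a25. Each is written 5′ to 3′ along the gene, with capitals at matches on either strand to TATAA, the core of a TATA box, and to AGGTCA and AGTTCA, half-sites that nuclear receptors such as PXR and CAR bind in pairs.
Cyp3a16: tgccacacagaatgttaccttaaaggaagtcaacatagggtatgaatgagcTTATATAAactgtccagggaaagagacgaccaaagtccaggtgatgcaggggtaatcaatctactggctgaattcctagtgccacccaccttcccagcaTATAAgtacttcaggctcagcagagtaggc
Cyp3a41a: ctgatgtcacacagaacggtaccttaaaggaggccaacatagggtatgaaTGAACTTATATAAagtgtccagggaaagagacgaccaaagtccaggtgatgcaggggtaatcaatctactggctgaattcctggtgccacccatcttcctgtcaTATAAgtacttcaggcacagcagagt
Cyp3a44: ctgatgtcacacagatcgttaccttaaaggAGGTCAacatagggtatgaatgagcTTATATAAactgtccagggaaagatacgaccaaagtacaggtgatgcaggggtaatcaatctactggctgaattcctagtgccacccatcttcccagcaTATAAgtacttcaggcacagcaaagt
Cyp3a11: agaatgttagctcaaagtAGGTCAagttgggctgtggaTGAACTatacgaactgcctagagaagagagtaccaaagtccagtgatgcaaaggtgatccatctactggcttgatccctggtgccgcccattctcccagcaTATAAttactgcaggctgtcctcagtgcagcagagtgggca
Cyp3a25: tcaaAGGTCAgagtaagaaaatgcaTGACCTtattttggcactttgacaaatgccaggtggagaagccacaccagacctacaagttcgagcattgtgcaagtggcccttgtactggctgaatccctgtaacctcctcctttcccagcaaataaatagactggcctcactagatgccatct
Among these, Cyp3a11 alone held both kinds of half-site, AGGTCA starting 162 bases before the start and AGTTCA, on the other strand, starting 142 bases before it. Cyp3a44 held AGGTCA at 150 bases and Cyp3a41a held AGTTCA on the other strand at 130 bases. The window of Cyp3a16, otherwise nearly the same, held neither, and Cyp3a25 held AGGTCA at 176 bases and again, on the other strand, at 155 bases. Of 32851 promoter windows of 250 bases, 14.0% held AGGTCA, 11.8% AGTTCA and 22.8% TATAA on either strand, where a stretch such as TTATATAA counts for both strands. A STAT element, TTCNNNGAA, was in 7.02% of windows and in none of the Cyp3a windows. These are matches of letters in a short window, and no binding was measured.

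Female-biased liver genes outside the family were lower in both knockouts. Of 10 measured, 9 were lower and 0 higher in Mdr2-KO than in wild type (median -2.73), and 9 lower and 0 higher in Mdr2-KO/IL6-KO (median -2.65), beside medians of -0.07 and -0.02 for all genes. Over all genes, 12.1% and 5.33% were called lower. The counts were 8 and 7 without wild-type array 2, and 7 and 6 without either wild-type array 1 or 3, the lowest with 1 array left out. Cyp17a1, a steroid hydroxylase, had a wild-type mean of 11.17, against 7.35 in Mdr2-KO and 6.59 where IL-6 was lacking too (-3.81, SE 0.61, adjusted p = 0.000813, and -4.58, SE 0.59, adjusted p = 0.000174 in limma). The sulfotransferase Sult3a1 differed by -5.09 and -6.00 (adjusted p = 0.00139 and 0.000374 in limma). It was under background on 4 of 5 Mdr2-KO and all 6 Mdr2-KO/IL6-KO arrays, so that these sizes are not exact. The secreted protein gene A1bg differed by -3.04 and -3.36 (adjusted p = 0.00393 and 0.00198 in limma). Its sizes are not exact either, since 1 of 5 Mdr2-KO and 3 of 6 Mdr2-KO/IL6-KO arrays were under background. The mean of the 10 genes on each array was 10.10, 9.17 and 9.77 in wild type, 6.89 to 7.72 in Mdr2-KO and 6.69 to 7.39 in Mdr2-KO/IL6-KO. Wild-type array 2, where Cyp3a16 was under background, was thus the lowest wild-type array for this list but still above every knockout array. Mdr2-KO array 3, where Cyp3a16 was above background, was at 7.22, within the range of its group.

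Male-biased liver genes moved in part the other way. Of 11 measured, 5 were higher and 1 lower in Mdr2-KO, and 4 higher and 1 lower in Mdr2-KO/IL6-KO (medians 0.31 and 0.06). The lower count was 0 without wild-type array 3 and 2 without wild-type array 2 in both. In Mdr2-KO/IL6-KO it was also 0 without wild-type array 1 or Mdr2-KO/IL6-KO array 6. The lower gene there, Elovl3, was under background on all 6 Mdr2-KO/IL6-KO arrays. Hsd3b5, which made the count 2 in Mdr2-KO, was under background on every array. Cyp2d9, a male-biased steroid hydroxylase, rose from 7.42 to 9.39 and 9.44 (1.97 and 2.02, adjusted p = 1.41e-07 and 6.19e-08 in limma), and the fatty acid hydroxylase Cyp4a12a rose by 3.22 and 3.38 (adjusted p = 0.00143 and 0.000905 in limma) from a wild-type mean of 4.28, under background, so the size of that rise is not exact. Of 9 growth hormone and STAT5 pathway genes, 0 were higher and 1 lower in Mdr2-KO, and 0 higher and 3 lower in Mdr2-KO/IL6-KO. The shares of all genes called lower were 12.1% and 5.33%. In Mdr2-KO the lower count was 2 without wild-type array 2 or Mdr2-KO array 3. In Mdr2-KO/IL6-KO it was 1 without wild-type array 3, and 2 without wild-type array 1 or any of Mdr2-KO/IL6-KO arrays 1 to 5. The growth hormone receptor Ghr was lower in both (-0.49 and -0.49, SE 0.08 and 0.08, adjusted p = 0.0011 and 0.00098 in limma). Stat5b, which encodes the STAT5 form that carries the male pulse pattern, differed by 0.13 and 0.17 without passing (adjusted p = 0.319 and 0.239 in limma); it is named after its value was seen.

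**Figure D4:**
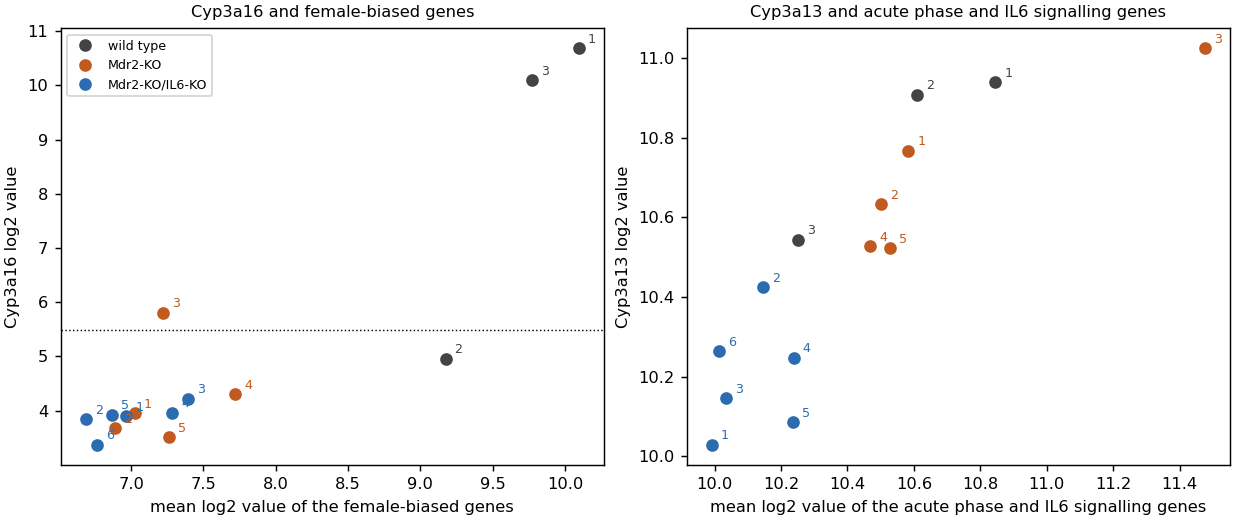
Cyp3a16 (left) and Cyp3a13 (right) on each of the 14 arrays (points, numbered by array within its group) against the mean log2 value of 10 female-biased genes and of 16 acute phase and IL6 signalling genes. Wild-type array 2 has a Cyp3a16 value of 4.95 at a list mean of 9.17, and Mdr2-KO array 3 has both the highest acute phase mean, 11.48, and the highest Cyp3a13 value, 11.02; the dotted line is the background.

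Among 11 receptors and factors that control Cyp3a genes, 1 was higher and 3 lower in Mdr2-KO, 0 higher and 3 lower in Mdr2-KO/IL6-KO, and none passed in limma between the knockouts (3 at an unadjusted p under 0.05). Against wild type, 8.89% of all genes were called higher and 12.1% lower in Mdr2-KO, and 6.96% higher and 5.33% lower in Mdr2-KO/IL6-KO. CAR (Nr1i3) was at 10.90 in wild type, 9.97 in Mdr2-KO (-0.93, SE 0.20, adjusted p = 0.00583 in limma) and, in Mdr2-KO/IL6-KO, at 10.03 (-0.86, SE 0.20, adjusted p = 0.00976 in limma). The latter did not pass when wild-type array 3 was left out (-0.70, adjusted p = 0.0691). The bile acid receptor FXR (Nr1h4) was lower in both knockouts. Its mean was 9.93 in wild type, 9.54 in Mdr2-KO and 9.29 where IL-6 was lacking too (-0.64, adjusted p = 0.00111 in limma for the latter). The FXR call in Mdr2-KO was lost without wild-type array 1 (-0.37, adjusted p = 0.0654 in limma) or array 3 (-0.40, adjusted p = 0.0634 in limma). The list held 2 calls without wild-type array 1 in Mdr2-KO, and 1 without wild-type array 3 in Mdr2-KO/IL6-KO. PXR (Nr1i2), named after its values were seen, differed by -0.18 and -0.08 (adjusted p = 0.448 and 0.821 in limma). Of 15 other PXR and CAR target genes, 1 was higher and 5 lower in Mdr2-KO (median -0.27), 3 higher and 5 lower in Mdr2-KO/IL6-KO (median -0.09), and none passed in limma between the knockouts (2 at an unadjusted p under 0.05). With 1 array left out the counts were 1 to 3 higher and 3 to 5 lower in Mdr2-KO (3 higher without Mdr2-KO array 3, 3 lower without wild-type array 3), and 1 to 4 higher and 4 to 5 lower in Mdr2-KO/IL6-KO.

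Targets that passed went in both directions, whereas Cyp3a11 was higher. Cyp2b10, the classical CAR target, had a wild-type mean of 9.21, against 7.40 in Mdr2-KO and 7.32 where IL-6 was lacking too (-1.81, SE 0.29, adjusted p = 0.000826, and -1.89, SE 0.28, adjusted p = 0.000557 in limma). The arachidonic acid epoxygenase Cyp2c37 differed by -1.62 and -1.43 (adjusted p = 0.000542 and 0.00126 in limma). The glutathione transferase Gstm3 was higher, by 0.74 and 0.86 (adjusted p = 0.00177 and 0.000601 in limma). Of 5 redox partners and haem supply genes for P450 enzymes, 0 were higher and 1 lower in Mdr2-KO, and 0 higher and 2 lower in Mdr2-KO/IL6-KO. The lower calls over all genes were 12.1% and 5.33%. Both Cyb5r3 and Alas1, among these redox and haem genes, lost their call when any of several arrays was left out, with 0 called in the lowest case.

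Some acute phase and IL6 signalling genes were lower in Mdr2-KO/IL6-KO, as Cyp3a13 was. Of 16 measured, 6 were lower and 0 higher in Mdr2-KO/IL6-KO than in Mdr2-KO (median -0.26), where 3.72% of all genes were lower and 5.04% higher. With 1 array left out, 4 to 7 were lower, and 5 without Mdr2-KO array 3. Orm1 lost its call without wild-type array 1 or 2, Mdr2-KO array 1, 3 or 4, or any Mdr2-KO/IL6-KO array. Saa2 lost its call without Mdr2-KO/IL6-KO array 2. Against wild type 2 were higher and 1 lower in Mdr2-KO (0 to 3 higher and 0 to 2 lower with 1 array left out), and 0 higher and 5 lower in Mdr2-KO/IL6-KO, with 2 to 7 lower when 1 array was left out (2 without wild-type array 1, 3 without wild-type array 2). In these 2 comparisons 21.0% and 12.3% of all genes passed. The serum amyloid gene Saa3 was lower in Mdr2-KO/IL6-KO than in Mdr2-KO (-0.98, SE 0.18, adjusted p = 0.00484 in limma), and so was the acid glycoprotein gene Orm2 (-1.20, SE 0.28, adjusted p = 0.0196 in limma). The mean of the 16 genes was 10.25 to 10.85 in wild type, 10.47 to 11.48 in Mdr2-KO and 9.99 to 10.24 in Mdr2-KO/IL6-KO.

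For each member, the genes whose pattern over the 14 arrays was most alike were looked up among 14158 other genes with a mean above background, by Pearson's r as a description only; arrays of a group share their group's shift. For Cyp3a13 these were Orm1 (r = 0.93), an acute phase glycoprotein, Fgg (0.92), the fibrinogen gamma chain, and Fgl1 (0.92), a fibrinogen-like protein secreted by hepatocytes. Orm1 read 12.40 to 12.56 in wild type, 12.21 to 12.76 in Mdr2-KO with the highest value on array 3, and 11.91 to 12.12 in Mdr2-KO/IL6-KO. Fgl1 read 11.70 to 12.28, 11.16 to 12.24 and 9.86 to 10.73 in the same groups. For Cyp3a16 they were Eci3 (0.95), an enoyl-CoA isomerase, Med12l (0.95) and 9530080O11Rik (0.94). Eci3 read 8.72, 6.36 and 7.52 in wild type and 6.27 on Mdr2-KO array 3, against 4.64 to 5.15 on the other Mdr2-KO arrays. Like Cyp3a16, it was under background on 4 of 5 Mdr2-KO and all 6 Mdr2-KO/IL6-KO arrays, where values have no order. For Cyp3a11 they were Armh3 (0.96), Il17rb (0.94), an interleukin receptor subunit, and Slc39a10 (0.94), a zinc importer. For Cyp3a44 they were Rdh16 (0.86), a retinol dehydrogenase, Foxp2 (0.85) and Slc22a5 (0.85), a carnitine transporter, and for Cyp3a25 Wwc1 (0.91), Adamts9 (0.79) and Igsf5 (0.78).

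Marker lists of other cell types were read beside these differences. For scale, 8.89% of all genes were called higher and 12.1% lower in Mdr2-KO against wild type. In Mdr2-KO/IL6-KO against wild type these shares were 6.96% and 5.33%. None of 8 hepatocyte markers passed in any comparison in limma (at an unadjusted p under 0.05, 1 passed for Mdr2-KO/IL6-KO with wild type and 0 in the other comparisons). Of 10 cholangiocyte markers, 5 were higher and 0 lower in Mdr2-KO and 7 higher and 0 lower in Mdr2-KO/IL6-KO, with list means of 6.05 to 6.43 in wild type, 6.67 to 7.55 in Mdr2-KO and 6.74 to 7.59 in Mdr2-KO/IL6-KO. Of 10 stellate cell and fibroblast markers, 3 and 5 were higher and 0 lower, with list means of 7.59 to 7.77, 7.67 to 8.45 and 7.90 to 8.50; the count in Mdr2-KO was 1 without wild-type array 1 or 3 and 6 without Mdr2-KO array 3, and that in Mdr2-KO/IL6-KO was 2 without wild-type array 1. Of 10 macrophage markers, 2 were higher in each against wild type and 0 lower, with 1 to 3 higher when 1 array was left out, and list means of 8.69 to 9.21 over all arrays. Among 9 pericentral hepatocyte genes, 0 were higher and 1 lower in Mdr2-KO and 0 higher and 3 lower in Mdr2-KO/IL6-KO, the first count being 0 without wild-type array 1 or 3 and 3 without array 2, and the second 1 without array 3. Among 5 periportal genes 2 were higher and 1 lower in Mdr2-KO (1 higher and 0 lower without wild-type array 3), and in Mdr2-KO/IL6-KO 2 were higher and 0 lower. The part of these cells and zones in the Cyp3a differences was not tested.

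**Figure D5:**
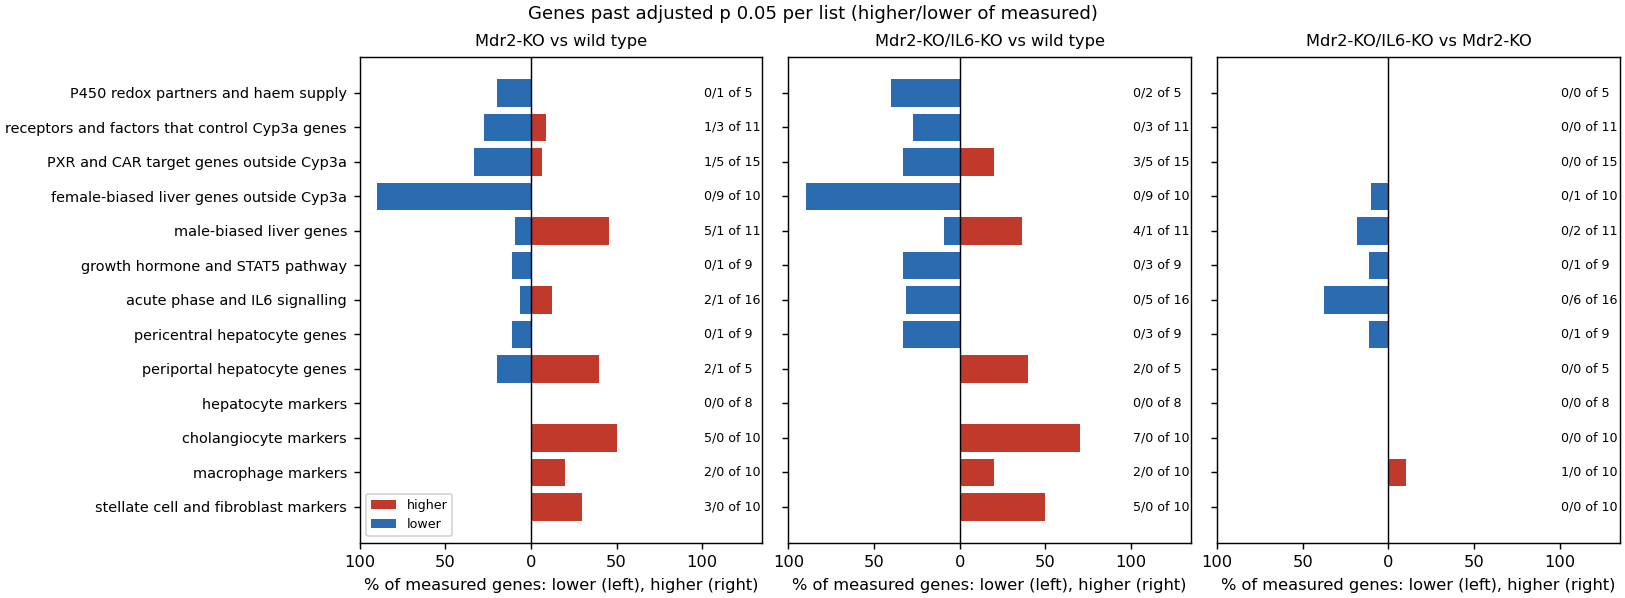
Share of the measured genes of each list that passed an adjusted p of 0.05 in limma, lower to the left and higher to the right, with the counts (higher/lower of measured) printed at the right of each panel. The female-biased list is lower at 9 of 10 genes in both knockouts against wild type, and the acute phase list has the most calls between the knockouts, 6 of 16.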

How the data were processed

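Liver RNA of 14 samples was hybridised as biotinylated cRNA to Affymetrix mouse gene arrays, 1 colour. The authors deposited log2 values, made with RMA (background correction, quantile normalization and probe summary) and Partek, per the submitters' processing notes; versions and build: not given in the sources used here. Of 35557 probes, 21789 name 1 gene, 1621 several and 12147 none; 21698 were matched by gene identifier. Each gene was read from its single-gene probe of highest mean, with no filter on dim genes. limma 3.58.1 (R 4.3.3) fitted 3 group means over all arrays, and the procedure was tested on simulated data. Positions and promoter windows came from RefSeq (GRCm38.p6), aligned end to end with Biopython 1.88. Members and gene lists were chosen with earlier results of these data known. Named genes were the members, the targeted genes, up to 4 called genes per list and comparison, and the 3 genes most alike to each member; the text shows a part of them. Alternatives were other normalizations, probe rules, filters, moderation and array sets. List genes without a single-gene probe were not analysed here. The number of arrays limits the precision.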

Additional observations from a re-analysis of the deposited data

How the results depend on the processing

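Over 24 alternative settings, 14 of which left out 1 array each, 357 values of members' differences were compared with the reported ones; 342 kept their direction and side of the threshold, 4 lost the call, 5 gained it and 6 changed sign. A fold change of at least 1.5 left 1 member called in Mdr2-KO (against wild type) and 0 when the knockouts were compared, since Cyp3a11 and Cyp3a13 differ by less. With only the brighter genes kept, 1 member was called in Mdr2-KO against wild type, because Cyp3a16 was no longer tested. Changes of sign were limited to values near 0 between the knockouts, where the cause was not tested: Cyp3a25 was at 0.024 after quantile normalization and between -0.060 and 0.0086 with 1 array left out, and Cyp3a16 was at 0.0081 without wild-type array 2 and Mdr2-KO array 3 and between -0.57 and 0.0081 with 1 array left out. Cyp3a44 passed in Mdr2-KO/IL6-KO against wild type with array quality weights (-0.64, adjusted p = 0.0118 in limma), and without wild-type array 2 and Mdr2-KO array 3 it passed in both knockouts (-0.48 and -0.77). Over all genes, the calls in Mdr2-KO against wild type numbered 4189, 2140 without wild-type array 3 and 799 with the fold limit. In Mdr2-KO/IL6-KO against wild type they numbered 2450, and 748 with the fold limit. Between the knockouts they numbered 1746, 2944 over all probes, 150 with the fold limit, 970 without wild-type array 2 and Mdr2-KO array 3, and 754, 932 and 999 without Mdr2-KO array 1, 3 or 4 and 1055 and 1045 without Mdr2-KO/IL6-KO array 4 or 5. The settings for gene lists and for shared probes were added after the data were seen. No paired analysis was possible because the labels give no replicate numbers that the groups share. Signal under background limits what can be said of Cyp3a16 in the knockouts and of Cyp3a57.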

Other observations

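Genes beside the Cyp3a block on chromosome 5 were read as a description of the region. Of 10 measured flanking protein-coding genes, 1 was higher and 2 lower in Mdr2-KO than in wild type, and none passed in limma in Mdr2-KO/IL6-KO against wild type (3 at an unadjusted p under 0.05) or between the knockouts (2 at an unadjusted p under 0.05). Of all genes, 21.0% passed in the first of these comparisons, 12.3% in the second and 8.76% in the last. Atp5j2, a subunit of mitochondrial ATP synthase, was higher in Mdr2-KO (0.28, SE 0.09), and Cdk8, a kinase of the Mediator complex, was lower (-0.29, SE 0.10). The differences of the 10 genes lay between -0.29 and 0.38 in Mdr2-KO and between -0.19 and 0.59 in Mdr2-KO/IL6-KO against wild type. Between Cyp3a13 and the targeted genes lie 1025 protein-coding genes for Abcb4 and 905 for Il6.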
